A study of Mus musculus with 2 samples.

Results

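The 10 genes described here encode ubiquitin ligases of the muscle atrophy programme, with the whole MuRF family: Fbxo32, Trim63, Trim54, Trim55, Fbxo30, Fbxo40, Fbxl22, Mdm2, Nedd4 and Cblb. They were chosen by name, with earlier results of these data known, among the 14451 annotated genes with reads. All 10 had reads in both libraries. The study holds 2 long-read libraries made from RNA of gastrocnemius, a calf muscle, which the labels call biological replicates 1 and 2 of a single group: female mice of the F1 hybrid B6CASTF1/J, 18 to 20 months old, with 2 µg of RNA per library. There was no treatment, other age or other tissue. The labels give 1 donor record for both libraries and do not say how many animals each came from, so a p-value here speaks of the gap between these particular libraries, part of which may be technical. Fold changes are replicate 1 over replicate 2 unless stated otherwise.

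A ubiquitin ligase picks the proteins that are tagged with ubiquitin, many but not all of which are sent to the proteasome. In wasting muscle the best known are Fbxo32 (atrogin-1) and Trim63 (MuRF1), which FoxO transcription factors switch on when insulin and Akt signalling is low and which serve as markers of atrophy. Fbxo32, Fbxo30, Fbxo40 and Fbxl22 are F-box proteins, the substrate-binding subunits of SCF (Skp1, cullin, F-box) complexes. The MuRF proteins are RING ligases of the sarcomere, Mdm2 and Cblb are RING ligases of p53 and of signalling receptors and adaptors, and Nedd4 is a HECT ligase.

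Replicate 1 held 1117891 reads of annotated mouse genes and replicate 2 held 975696, of which the 10 ligase genes took 2021 and 1669. A count of 0 allows a level of up to 2.68 reads per 1000000 (CPM) in replicate 1 and 3.07 CPM in replicate 2. Each long read was counted as 1 molecule whatever its length, and CPM was not divided by length. Whether molecules of all lengths were read alike was not tested. Skeletal muscle fibre markers summed to 322700 and 353300 CPM, and 4 of 6 cardiac markers (Nppa, Nppb, Ryr2 and Tnni3) were at 0 in both libraries. Markers of smooth muscle, fibroblasts, endothelium, macrophages, adipocytes and satellite cells summed to between 17.4 and 451 CPM per list and library. Among the fibroblast markers Col1a1, Col1a2 and Col3a1 were higher in replicate 2 and Dcn in replicate 1, and the macrophage marker Lyz2 was higher in replicate 1. The markers Cd68 and Pax7 were at 0.

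Trim63 and Trim54 were the most abundant of the 10 genes, and Fbxo30, Fbxl22 and Cblb were barely read. Trim63 (MuRF1) averaged 447 ± 15.9 CPM and Trim54 (MuRF3, which binds microtubules) 436 ± 142 CPM (SD, n = 2 libraries, as for all means). Next came the muscle F-box gene Fbxo40 at 268 ± 93.9 CPM, Nedd4 at 266 ± 78.9 CPM and Fbxo32 at 177 ± 93.2 CPM. Trim55 (MuRF2) had 77.4 ± 9.46 CPM and Mdm2 70.6 ± 1.32 CPM. Fbxo30 (MUSA1, a BMP-regulated F-box gene) had 9.02 ± 1.16 CPM, Fbxl22 6.34 ± 2.64 CPM and Cblb 3.33 ± 0.356 CPM. The means of Trim63 and Trim54 differed by less than the spread of Trim54. The same held among Fbxo40, Nedd4 and Fbxo32, and between Trim55 and Mdm2, for the larger SD of each pair. Trim63 was the 186th most abundant gene in replicate 1 and the 198th in replicate 2. The leading transcripts of Trim63 and Trim54, of 1886 and 1434 bases, are the shortest of the 10 genes. The part of length in this order of levels was not tested.

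**Figure D1:**
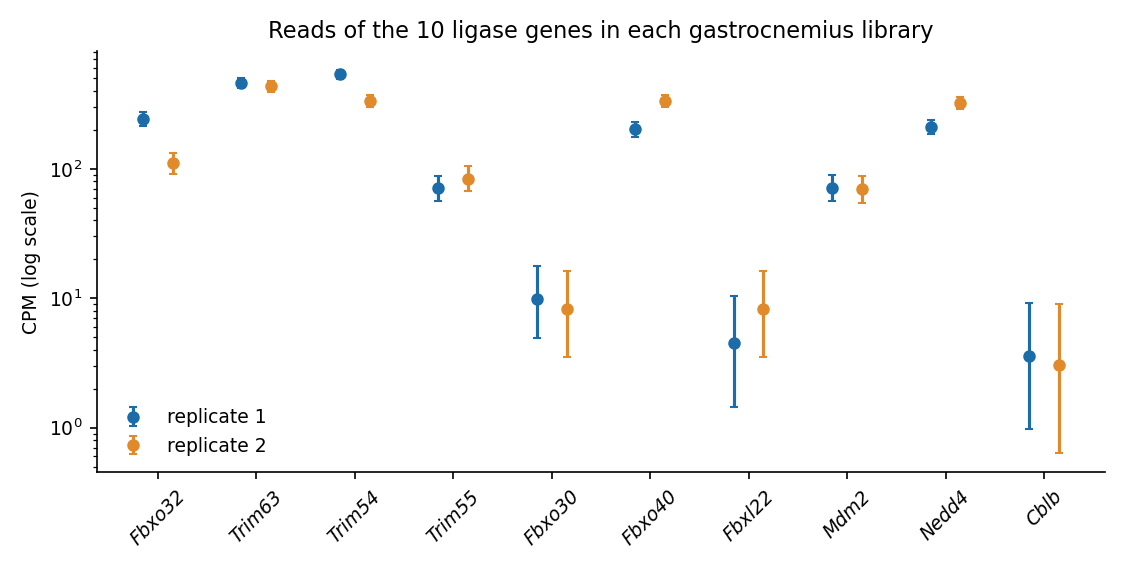
CPM of each ligase gene in replicate 1 (blue) and replicate 2 (orange) on a log axis, with exact 95% intervals that cover counting error only. Trim63 and Trim54 lie at 335 CPM or above in both libraries, and Fbxo30, Fbxl22 and Cblb lie under 10 CPM.

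Between the libraries 4 of the 9 genes tested differed, 2 in each direction, while Trim63, Trim55, Fbxo30, Fbxl22 and Mdm2 did not pass the test. Cblb, with 4 reads in replicate 1 and 3 in replicate 2, was under the 10 reads needed. The test was a 2-sided exact binomial test on the counts with Benjamini-Hochberg adjustment over 8394 genes. It called 11.7% of all genes tested, 4.61% higher in replicate 1 and 7.06% higher in replicate 2. That background holds every gene with at least 10 reads over both libraries. Genes with more reads pass at smaller folds, and the members were not matched to it for read depth. Of the calls, 387 were higher in replicate 1 and 593 in replicate 2; with total reads as library sizes, which moves the median of all genes by 0.11 on the log2 scale, they were 586 and 452. The median log2 ratio was -0.08 over the 9 genes and -0.003 over all genes tested. That test knows counting error only. When the scatter common to all genes (edgeR common dispersion 0.0617) was taken as given, 0 of the 9 genes passed, against 0.286% of all genes. That dispersion was estimated from the same 2 libraries treated as 1 group, so it contains the differences it is set against. Few genes can pass such a test, and failing it does not show equal levels. The unadjusted binomial p was under 0.05 for 1886 of the 8394 genes.

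Fbxo32 took 271 reads of replicate 1 and 108 of replicate 2. It was 2.02-fold higher in replicate 1 (95% interval 1.61 to 2.55; exact binomial adjusted p = 7.7e-09). Trim54 took 599 reads of replicate 1 and 327 of replicate 2 and was 1.48-fold higher in replicate 1 (1.29 to 1.70; exact binomial adjusted p = 4.0e-07). These 2 genes were the only members called higher in replicate 1.

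Fbxo40 and Nedd4 went the other way. Fbxo40, whose product targets the insulin receptor substrate IRS1, took 225 reads of replicate 1 and 326 of replicate 2 and was 1.80-fold higher in replicate 2 (1.51 to 2.14; exact binomial adjusted p = 5.95e-10). Nedd4, which acts on membrane proteins and signalling adaptors, took 235 reads of replicate 1 and 314 of replicate 2 and was 1.66-fold higher in replicate 2 (1.40 to 1.97; exact binomial adjusted p = 1.9e-07).

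Trim63 took 512 reads of replicate 1 and 425 of replicate 2, a ratio of 0.971 with an interval of 0.852 to 1.11. Mdm2 had 80 and 68 reads, a ratio of 0.948 (0.678 to 1.33), in replicate 1 and replicate 2. Trim55 took 79 reads of replicate 1 and 82 of replicate 2, a ratio of 0.776 (0.563 to 1.07). The intervals of Trim63, Mdm2 and Trim55 hold equality, the ratios of Trim63 and Mdm2 pass 1 when total reads set the scale, and that of Trim63 is the narrowest. Fbxo30 took 11 reads of replicate 1 and 8 of replicate 2, while Fbxl22 took 5 and 8. With so few reads their intervals, 0.406 to 3.17 and 0.130 to 1.75, hold changes larger than any seen in the 4 genes called.

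Of the 2 classical atrophy markers, Trim63 had 1.89 reads per Fbxo32 read in replicate 1 and 3.94 in replicate 2, a difference that was not itself tested. Within the MuRF family, Trim63 took 43.0% of the reads in replicate 1 (exact binomial 95% interval 40.2 to 45.9) and 51.0% in replicate 2 (47.5 to 54.4). Trim54 took 50.3% (47.5 to 53.2) in replicate 1 and 39.2% (35.9 to 42.6) in replicate 2. Trim55 took 6.64% (5.29 to 8.21) in replicate 1 and 9.83% (7.90 to 12.1) in replicate 2. Trim54 led the family in replicate 1 and Trim63 in replicate 2.

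The libraries also differed by transcript length. With each gene classed by its longest annotated transcript, the median log2 ratio of all genes tested was 0.43 under 1000 bases and 0.26 between 1000 and 2000 bases. It was -0.14 between 3000 and 5000 bases and -0.31 above that. The members were placed by their leading transcript instead, so the class of a member near an edge is uncertain. Trim54, with a transcript of 1434 bases, and Fbxo40 and Nedd4, with 5137 and 5499 bases, had log2 ratios of 0.56, -0.85 and -0.73, each on the side of their length class. Fbxo32, whose transcript has 6976 bases, had a log2 ratio of 1.02 against a class median of -0.31. Of the 5 genes not called, 3 lay across from their class median: Trim63 (-0.04 against 0.26), Trim55 (-0.365 against 0.10) and Fbxo30 (0.15 against -0.31). Mdm2 (-0.08) and Fbxl22 (-0.99) lay on the side of theirs, at -0.14. The intervals of these 5 genes hold equality. The part of length in the 4 differences was not tested.

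**Figure D2:**
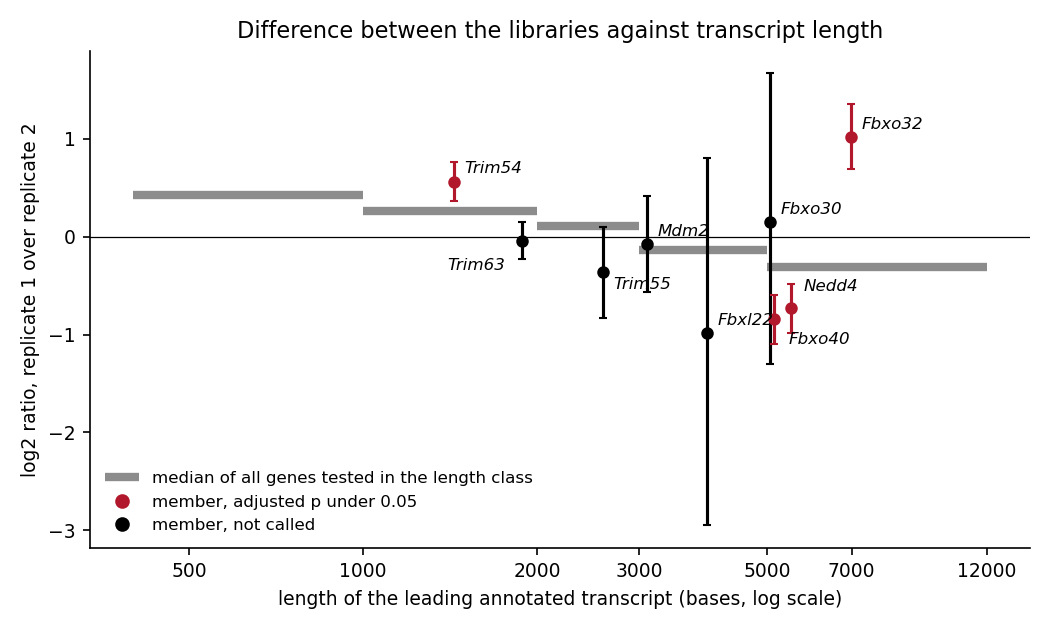
Log2 ratio of replicate 1 over replicate 2 for the 9 genes tested against the length of their leading annotated transcript, with exact 95% intervals. Grey bars are medians of all genes tested, in classes of the longest annotated transcript of each gene. They go down with length, and Fbxo32 at 1.02 lies above its class median of -0.31.

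The deposited models sort reads into classes by splice sites. Broadly, Known models carry all introns of an annotated transcript, ISM (incomplete splice match) models a run of them, NIC models annotated sites joined in an unannotated way and NNC models an unannotated site, while Genomic models run over an intron or have none. The class names are used as deposited, and some models depart from this: a few ISM models are unspliced or hold an unannotated site. The intron chain of a model is the ordered set of its introns. The share of reads with a complete annotated chain was 57.0 to 87.7% in replicate 1 and 60.2 to 88.4% in replicate 2 for the 7 members with at least 20 reads in each. The medians over 3951 genes were 80.0% in replicate 1 and 81.5% in replicate 2. Trim54 had the highest share and Nedd4, with 29 exons, the lowest in replicate 1, while in replicate 2 Nedd4 and Fbxo32 both stood at 60.2%. By Fisher's exact test 0 of these 7 genes differed between the libraries after Benjamini-Hochberg adjustment, against 1.01% of all genes. For the share of the leading chain among Known, NIC and NNC reads, 0 of 7 differed, against 0.546% of 3297 genes. None of the 4 genes called for their level was called for either share by Fisher's test.

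**Figure D3:**
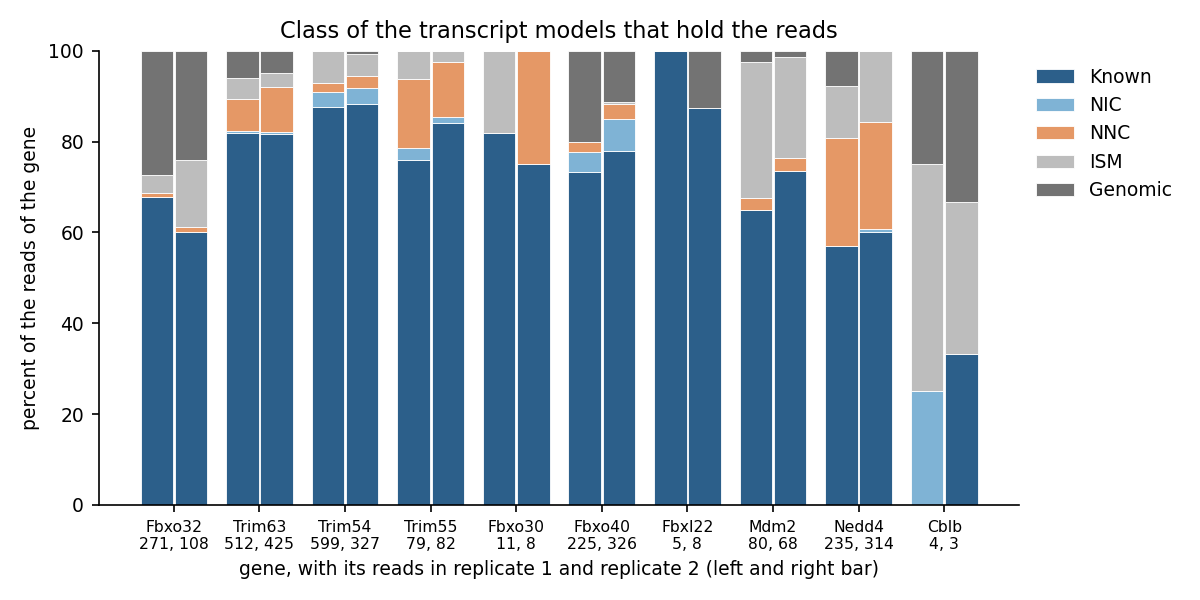
Percent of the reads of each ligase gene in the 5 model classes, replicate 1 in the left bar and replicate 2 in the right bar, with the number of reads under each gene. Genomic models are common in Fbxo32 and Fbxo40, NNC models in Nedd4 and Trim55, and ISM models in Mdm2, while the bars of Fbxo30, Fbxl22 and Cblb rest on 11 reads or fewer.

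Fbxo32 lies on chr15:58175879-58214932 (mm10, minus strand) and has 1 annotated transcript, of 9 exons and 355 codons with a 3′ untranslated part of 5587 bases. Its complete chain took 184 of 271 reads in replicate 1 and 65 of 108 in replicate 2. Among Known, NIC and NNC reads it took 98.9% in replicate 1 and 98.5% in replicate 2, so that almost no alternative splicing of Fbxo32 was read. Single-exon models held 74 reads (27.3%) in replicate 1 and 30 (27.8%) in replicate 2. All 74 lay wholly in the 3′ untranslated part in replicate 1, and 25 of the 30 in replicate 2.

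The 3′ ends of the unannotated Fbxo32 models were spread over the last exon. In replicate 1, 39 of these reads ended at the annotated end, 25 ended 1512 bases before it and 22 ended 4082 bases before it. In replicate 2, 16 ended at the annotated end, 17 ended 1523 bases before it and 8 ended 4198 bases before it. The share within 50 bases of the annotated end was 44.8% (34.1 to 55.9) in replicate 1 and 37.2% (22.98 to 53.3) in replicate 2. In Trim63, Trim54, Fbxo40, Mdm2 and Nedd4, 96.8% or more of such reads in each library ended within 50 bases of the most used end. The poly(A) signal AATAAA, looked for on the transcript strand in the 50 bases before an end, was found at the annotated end and before the end at 4198 bases. It was not found in those windows at 1512, 1523 and 4082 bases. The 20 bases after the 4 inner ends held 4 to 8 A. Known models carry annotated ends and could not be used, and 92.8% of the 404 ends of unannotated members' models lay on a boundary shared with another exon or model, so these positions are rough. Priming inside the transcript was not tested.

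**Figure D4:**
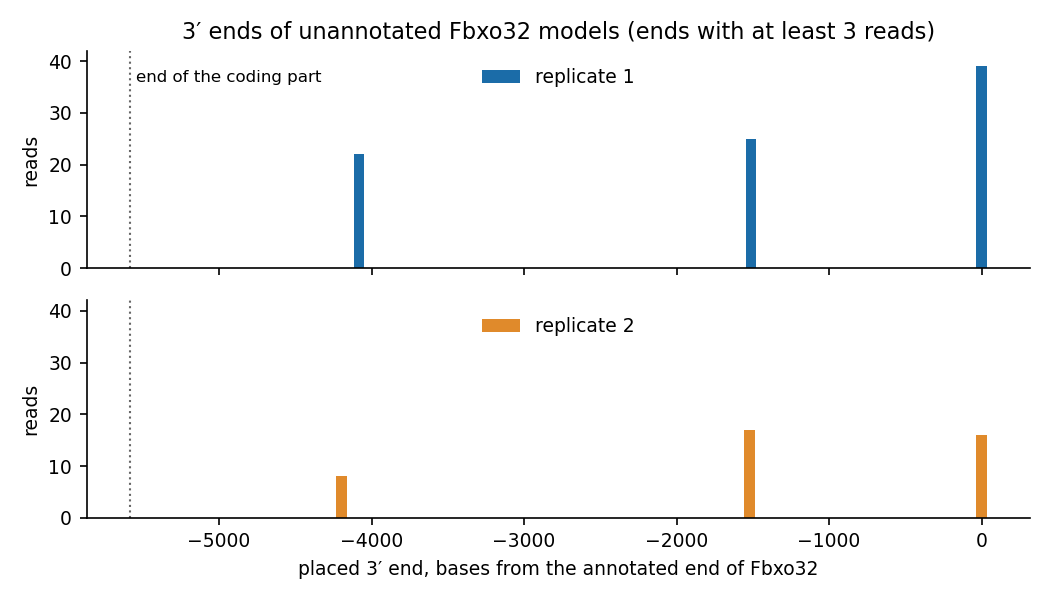
Reads of unannotated Fbxo32 models by the distance of their placed 3′ end from the annotated end in bases, replicate 1 above and replicate 2 below. Both libraries have 3 groups of ends, at the annotated end, 1512 or 1523 bases before it and 4082 or 4198 bases before it, and the dotted line marks where the coding part ends.

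The 3 MuRF genes are built alike: exons 2, 4, 5, 6 and 7 have the same lengths of 173, 96, 234, 23 and 125 bases in each. Exon 6, of 23 bases, is shown because reads without it were found in all 3 genes, with 12 coding bases on each side and the exon in capitals.
Trim63 exon 6: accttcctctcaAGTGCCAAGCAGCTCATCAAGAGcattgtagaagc
Trim54 exon 6: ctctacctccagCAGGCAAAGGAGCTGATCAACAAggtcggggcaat
Trim55 exon 6: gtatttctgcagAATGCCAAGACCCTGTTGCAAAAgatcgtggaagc
The exons lie on mm10 at chr4:134325045-134325067, chr5:31136753-31136775 and chr3:19671407-19671429, all on the plus strand. Of the 23 bases, 10 are the same in all 3 genes, and Trim63 and Trim54 share 15.

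Most MuRF reads held exon 6, and reads without it occurred in both libraries. Of the Trim63 reads that spanned it, 94.3% held it exactly in replicate 1 (91.8 to 96.2) and 91.8% (88.6 to 94.2) in replicate 2. Trim54 had 98.1% (96.6 to 99.1) in replicate 1 and 98.1% (96.0 to 99.3) in replicate 2. Trim55 had 89.0% (79.5 to 95.2) in replicate 1 and 88.8% (79.7 to 94.7) in replicate 2. The libraries agree within these intervals, and the order Trim54, Trim63, Trim55 was the same in both. The intervals of Trim63 and Trim55 overlap in each library.

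In 7 exons of 23 bases of other genes, read the same way, the mean share had a median of 99.6% and ran from 97.1 to 100%. Over all genes the measure falls sharply below this length: its median was 98.7% for 32 exons of 21 to 25 bases, 5.29% for 9 exons of 16 to 20 bases and 0% for 5 exons of at most 15 bases. Most reads without exon 6 came from 1 NNC chain per gene in which a neighbouring exon was longer. In Trim63 (22 reads in replicate 1, 26 in replicate 2) exon 5 was 18 bases longer, with the intron chr4:134323256-134325583. In Trim55 (8 reads in each library) exon 7 began 25 bases earlier, and in Trim54 (3 reads in replicate 1, 4 in replicate 2) 18 bases earlier. The added 18 to 25 bases are close to the 23 that are lacking, and the net change was -5, 2 and -5 bases in Trim63, Trim55 and Trim54. Whether the reads themselves lack the exon or were placed wrongly around it was not tested.

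**Figure D5:**
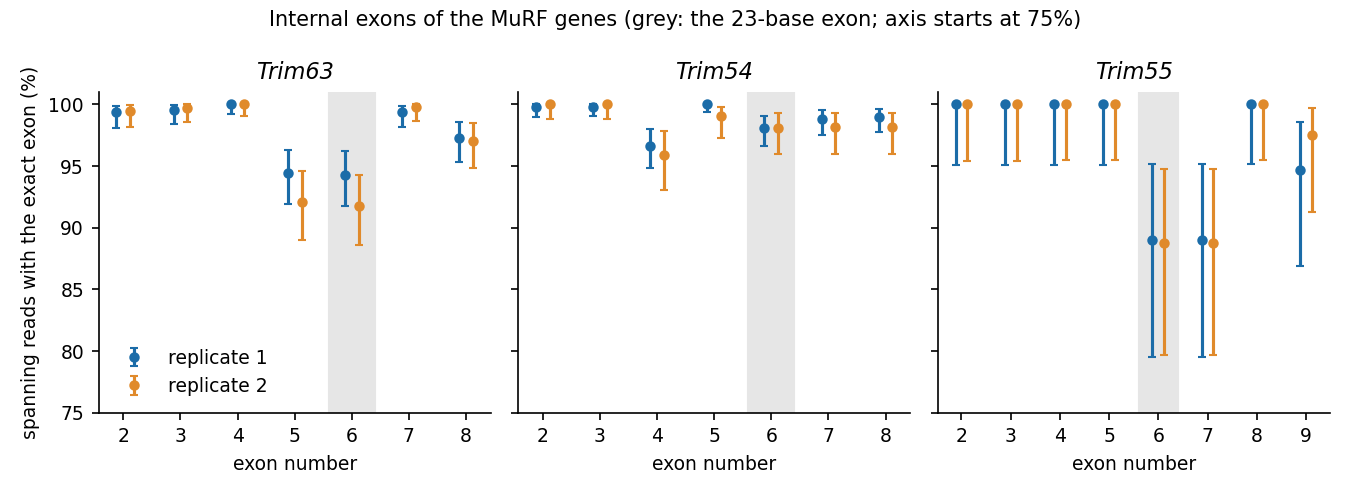
Percent of spanning reads that hold each internal exon with both boundaries exact, for Trim63, Trim54 and Trim55 in replicate 1 (blue) and replicate 2 (orange), with exact 95% intervals. The axis starts at 75%; the low points are exon 6 and the neighbour lengthened in its absence (exon 5 in Trim63, exon 7 in Trim55), exon 4 in Trim54, and exon 9 in Trim55 (94.7% in replicate 1).

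Trim54 lies on chr5:31116712-31137630 (plus strand). Its transcript Trim54-201 took 524 of 557 Known, NIC and NNC reads in replicate 1 and 289 of 309 in replicate 2. The leading unannotated chain left out exon 4 of 96 bases, which keeps the reading frame, in 15 reads of replicate 1 and 9 of replicate 2. All chains counted, exon 4 was absent from 17 of 567 spanning reads in replicate 1 and 9 of 317 in replicate 2. In Trim63, with 463 spanning reads in replicate 1 and 392 in replicate 2, and in Trim55, with 73 and 80, no read lacked the matching exon. Exon 4 is printed for the 3 genes because it was skipped in Trim54 and never seen skipped in the others, with bases identical in all 3 in capitals.
Trim63 exon 4: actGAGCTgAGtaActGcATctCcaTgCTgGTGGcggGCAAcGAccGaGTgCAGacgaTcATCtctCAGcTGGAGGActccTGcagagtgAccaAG
Trim54 exon 4: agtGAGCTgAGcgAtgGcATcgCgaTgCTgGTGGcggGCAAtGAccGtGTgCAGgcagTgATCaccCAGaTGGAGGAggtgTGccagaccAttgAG
Trim55 exon 4: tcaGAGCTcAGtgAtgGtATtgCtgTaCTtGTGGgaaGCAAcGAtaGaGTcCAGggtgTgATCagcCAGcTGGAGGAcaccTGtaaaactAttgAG
They lie at chr4:134321183-134321278, chr5:31134050-31134145 and chr3:19661785-19661880, and 50 of the 96 bases are the same in all 3. Identity over exon 2, which is 72.2% between Trim63 and Trim54, was higher than over exon 7 at 56.8%. No MuRF exon of equal length was above 74.0% identical between any pair. The difference in skipping between the genes was not tested.

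Where MuRF transcripts differ by nearby splice sites, nearly all reads used 1 of them. Trim63-201 differs from Trim63-202 by a donor 9 bases earlier at the end of exon 8. Trim63-202 took 419 reads of replicate 1 and 346 of replicate 2, while Trim63-201 took 0 in both, which allows at most 3 reads per library. In Trim54-202 the last exon begins 6 bases later than in Trim54-201, and it had 1 read in replicate 1 and 0 in replicate 2. A chain that differs from Trim63-202 only by an unannotated acceptor 5 bases into exon 8, which shifts the reading frame, had 9 reads in each library. These were 1.97% of Known, NIC and NNC reads in replicate 1 and 2.30% in replicate 2. The bases gained or lost at these 3 sites are in capitals between coding bases.
Trim63 exon 8, end (9 bases lacking in Trim63-201): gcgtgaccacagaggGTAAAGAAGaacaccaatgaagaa
Trim63 exon 8, start (5 bases lacking with the later acceptor): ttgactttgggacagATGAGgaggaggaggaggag
Trim54 exon 9, start (6 bases lacking in Trim54-202): acgtgccagaagGCTCAGgcctgcactgac
They lie at chr4:134327774-134327782, chr4:134327705-134327709 and chr5:31137477-31137482.

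Trim63 lies on chr4:134315120-134329629 (plus strand), and its 31 single-exon reads in replicate 1 and 21 in replicate 2 ran from the last exon into the intron before it. Trim55 lies on chr3:19644474-19692421 (plus strand) and overlaps another annotated gene, BC002189, on its own strand. Its transcript Trim55-201, of 10 exons, took 60 reads of replicate 1 and 68 of replicate 2, or 81.1% and 85.0% of Known, NIC and NNC reads. The reads of the chain without exon 6 came second, at 8 of 74 in replicate 1 and 8 of 80 in replicate 2. Exon 9 of 288 bases was absent from 2 of 75 spanning reads in replicate 1 and 1 of 80 in replicate 2.

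Fbxo40 lies on chr16:36963460-36990467 (minus strand) and was read mostly as Fbxo40-201, with 124 reads in replicate 1 and 203 in replicate 2. These were 68.9% and 70.5% of its Known, NIC and NNC reads. The next was Fbxo40-203, an annotated transcript that holds only the last intron, with 39 reads in replicate 1 and 49 in replicate 2. A Fbxo40-201 molecule read from within exon 3 has the same intron chain, so the 2 cannot be told apart. Single-exon reads, all in the 3′ untranslated part, numbered 45 in replicate 1 and 37 in replicate 2.

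Exon 2 of Fbxo40 has 30 bases, on chr16:36978749-36978778, and its last 3 bases are the annotated start codon, shown in capitals because the leading unannotated chain lacks it.
Fbxo40 exon 2: agttaagaagccagaagcagggaagccATG
Of the reads that spanned exon 2, 6 of 138 lacked it in replicate 1 (4.35%, 1.61 to 9.22) and 17 of 236 in replicate 2 (7.20%, 4.25 to 11.3). The libraries do not differ beyond these intervals. The next ATG in the annotated frame is codon 48 of 710. Exons of 26 to 30 bases over all genes had a median exact share of 99.4%, against 95.7% in replicate 1 and 92.8% in replicate 2 for this one. A further chain had exon 1 lengthened by 103 bases in 2 reads of replicate 1 and 8 of replicate 2. Another left out exon 3, of 1917 bases, in 4 reads of replicate 1 and 6 of replicate 2.

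Nedd4 lies on chr9:72662346-72749852 (plus strand) and was read in 2 main forms that differ in where they start. Nedd4-201, of 29 exons, had 130 reads in replicate 1 and 183 in replicate 2. The annotated retained-intron transcript Nedd4-206, whose 1 intron is also in Nedd4-201, had 2 reads in replicate 1 and 3 in replicate 2. Its reads count as a complete annotated chain. An unannotated chain of 24 exons, with its own first exon inside intron 6, had 47 reads in replicate 1 and 68 in replicate 2. That first exon ends at chr9:72694866 and its placed start is 72692836 in replicate 1 and 72692284 in replicate 2. The chain then joins exon 7 by the intron chr9:72694867-72709111 and keeps every later intron of Nedd4-201.

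Counted at this junction, 47 of 190 reads that entered exon 7 came from the inner exon in replicate 1 (24.7%, 18.8 to 31.5) and 73 of 262 in replicate 2 (27.9%, 22.5 to 33.7). Reads from exon 6 made up 72.1% (65.1 to 78.4) in replicate 1 and 71.8% (65.9 to 77.1) in replicate 2. A second inner donor, at 72697979, had 6 reads in replicate 1 and 1 in replicate 2. The total of Nedd4 differed between libraries, while the share of the inner form stayed within its counting error. Exons 1 to 6 hold 468 coding bases, or 156 codons, of the 887 codons of Nedd4-201. From exon 7 on, the first ATG in the annotated frame is codon 179. RefSeq (GRCm38.p6) lists 2 starts of Nedd4, at 72662331 and at 72693298, and the second lies in the inner first exon as placed. The annotated locus Gm7265, on the same strand there, was assigned 0 reads in both libraries. Whether the inner exon adds coding bases was not tested.

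Mdm2 lies on chr10:117688875-117710758 (minus strand). Mdm2-201, with all 11 introns, had 52 reads in replicate 1 and 47 in replicate 2. The next chain lacked only intron 1, with 19 reads in replicate 1 and 12 in replicate 2. Among reads with the last introns of Mdm2-201 it made up 25.3% (15.99 to 36.7) in replicate 1 and 19.4% (10.4 to 31.4) in replicate 2. Its placed start is 117710292 in both libraries, inside intron 1 and 264 bases before exon 2. As background, Mdm2 is known to have a second promoter in intron 1 that answers to p53, and both forms keep the start codon in exon 3. Chains that lacked only intron 1 made up 0.229% in Trim63, 0.894% in Trim54, 1.21% in Fbxo40 and 0.633% in Nedd4 in replicate 1. In replicate 2 they made up 0.279% in Trim63, 0% in Trim54, 0.787% in Fbxo40 and 1.36% in Nedd4. Fbxo30 had 2 such reads of 11 in replicate 1 and 0 of 6 in replicate 2. Ends of models are rough, as said for Fbxo32, so a start in intron 1 and a read that stopped there cannot be told apart.

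The other 3 genes gave few molecules. Fbxo30, on chr10:11281330-11298052, had 9 reads of Fbxo30-202 in replicate 1 and 6 in replicate 2. Fbxl22, on chr9:66508459-66514593, had 5 and 7 reads of its only transcript in replicate 1 and replicate 2. It overlaps Herc1, which is on the opposite strand. Of the Cblb reads, on chr16:52031225-52208048, 1 in replicate 2 held the whole chain of 17 introns of Cblb-201. The depth does not allow isoform shares for these 3 genes.

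Genes around the ligases were counted in 8 lists, in the same test. With the common dispersion taken as given, 0 genes of any list passed. It was estimated from these same libraries, so few genes can pass. The binomial test called 11.7% of all genes tested, 4.61% higher in replicate 1 and 7.06% higher in replicate 2. The counts of each list stand beside that background. Genes with more reads pass at smaller folds, and the lists were not matched to the background for read depth. The lists were also written with earlier results of these data known, so their shares called are no independent comparison with it. Of 22 tested regulators of the atrophy ligases, 2 favoured replicate 1, 5 favoured replicate 2 and 15 did not pass, with 31.8% called and a median log2 ratio of 0.10. The FoxO factor Foxo1 had 21 reads in replicate 1 and 40 in replicate 2 (2.36-fold higher in replicate 2; exact binomial adjusted p = 0.0139). Fbxo32, its known target, was higher in replicate 1. The glucocorticoid-induced genes did not move together: Klf15 took 99 reads of replicate 1 and 212 of replicate 2, Ddit4 had 0 and 16, and Fkbp5 had 95 and 33, in that order of libraries. The exact 95% lower limit of the Ddit4 fold, for counting error, was 4.79 in favour of replicate 2. Smad3, a mediator of myostatin, took 59 reads of replicate 1 and 88 of replicate 2, and the TWEAK receptor Tnfrsf12a had 43 and 11. Each of these passed, while Akt2 (239 and 166 reads) and Tfeb (205 and 154) did not.

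Of 16 tested proteins reported as substrates or partners of the MuRFs and atrogin-1, 7 were higher in replicate 1, 5 in replicate 2 and 4 did not pass, with 75% called. Slow troponin I Tnni1 took 41 reads of replicate 1 and 133 of replicate 2, and slow myosin-binding protein Mybpc1 had 861 and 2422. The giant protein titin, Ttn, had 461 and 733 reads, and fast Mybpc2 had 9075 and 8321. Fast troponin I Tnni2 had 5257 reads in replicate 1 and 2321 in replicate 2, Mylpf had 11235 and 6230, and Myl1 had 9569 and 6330. All 7 passed the test, which scales reads to library size and passes small folds in genes with many reads. Mybpc2 passed at 1.14-fold. The 75% called here and the 11.7% of all genes tested were not matched for read depth. Tnni1, Mybpc1, Ttn and Mybpc2 were higher in replicate 2, where Mybpc2 stood at 8528 CPM against 8118 CPM in replicate 1. Tnni2, Mylpf and Myl1 were higher in replicate 1, so the fast-fibre genes went both ways. The part of transcript length in these 7 differences was not tested.

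The Mdm2 list held 10 tested genes of p53, of which 3 favoured replicate 1, 1 favoured replicate 2 and 6 did not pass, with 40% called. The cell cycle inhibitor Cdkn1a had 85 reads in replicate 1 and 12 in replicate 2, 5.71-fold higher in replicate 1 (3.10 to 11.5; exact binomial adjusted p = 6.8e-10). The receptor Eda2r had 39 and 8 reads and Phlda3 had 329 and 187, both higher in replicate 1, and Ccng1 had 779 and 733 reads and was higher in replicate 2 once scaled to library size (697 CPM in replicate 1, 751 CPM in replicate 2). Mdm2 itself, at 80 and 68 reads, was not called.

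Of 8 tested genes of the NEDD4 family and its adaptors, the ligase Wwp1 was higher in replicate 2 (276 reads in replicate 1, 353 in replicate 2). The adaptor Ndfip1 was higher in replicate 1 (129 and 66), and 6 did not pass. Of 13 tested conjugating enzymes, Ube2b (343 and 203) and Ube2d1 (62 and 25) were higher in replicate 1 and 11 did not pass, among them Ube2d3 (477 and 329) and Ube2v1 (395 and 269). Of 8 genes of the SCF core, the exchange factor Cand1 was higher in replicate 2 (11 reads in replicate 1, 29 in replicate 2). Cdc34 (420 and 274) and Ube2m (277 and 180) did not pass. Of 20 other muscle ligases tested, Trim32 was higher in replicate 2 (12 and 30). The other 19 did not pass, with Asb2 at 1637 ± 37.3 CPM and Fbxo31 at 411 ± 1.00 CPM the most abundant. None of 5 tested genes of the CBL and IRS list passed in the binomial or the edgeR test; the most abundant were Grb2 (51 and 32) and Irs1 (36 and 44), the known target of Fbxo40.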

How the data were processed

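For each library the authors deposited a table of raw read counts by transcript model and annotations that place each model on mm10; other columns, per the file headers, give exon number and length. Models combine GENCODE M21 with TALON models added per library; the aligner, its filters and software versions: not given in the sources used here. Counts of all models assigned to an annotated gene were added up, and CPM has the reads of such genes as its base. Libraries held 1175829 and 1017384 reads, so a typical gene had few. Counts were compared by exact binomial tests on TMM library sizes (edgeR 4.0.16, R 4.3.3; DESeq2 1.42.0 as alternative) for genes with at least 10 reads, and shares by Fisher's exact tests for genes with at least 20 reads in each library, with Benjamini-Hochberg adjustment at 0.05 over all genes. No quasi-likelihood fit has residual degrees of freedom with 1 library per side. Models were matched by intron chain; exons counted as held only with both boundaries exact, in reads spanning them. Intervals are 95% exact binomial and cover counting error only. Sequences are from GENCODE M21 transcripts. Named were all members, their annotated chains with at least 5 reads or 5% and leading unannotated chains, and from each list the genes called (at most 6) and the 2 most abundant. Shorter chains named beside these were chosen after their values were seen. The members and lists were chosen with earlier results of these data known. The binomial and Fisher tests were tried on simulated counts and shares with counting error only. Those data held no further scatter between libraries, so they cannot show how the calls fare under it. Python 3.11.15, numpy 2.4.6, pandas 2.3.3, scipy 1.17.1 and matplotlib 3.10.9 were used.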

Additional observations from a re-analysis of the deposited data

Results flagged for a closer look

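Reads on the strand opposite to a ligase gene, in models that belong to no annotated gene, were outside the counts above and exceeded the 3 reads that a count of 0 allows in 4 genes. Nedd4 had 23 such reads in replicate 1 and 8 in replicate 2, and Fbxo32 had 11 in replicate 1 and 10 in replicate 2. Cblb had 6 in each library, more than its 4 and 3 reads on its own strand, and Trim55 had 4 in replicate 1, with 3 in replicate 2. Of these reads, 8 in replicate 1 and 4 in replicate 2 overlapped an exon of Fbxo32, and 6 and 3 an exon of Nedd4. Their origin was not tested.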

How the results depend on the processing

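Fbxo32, Trim54, Fbxo40 and Nedd4 kept their direction and call, and the other 5 tested genes stayed uncalled, with total reads or DESeq2 size factors, without the read filter, with Known, NIC and NNC models only, without Genomic models and with unannotated models added. Among the uncalled genes the log2 ratio changed sign for Trim63 (0.07) and Mdm2 (0.04) with total reads and for Fbxo30 (-0.13) with Known, NIC and NNC models. With the common dispersion taken as given, 24 genes were called in place of 980, and Fbxo32, Trim54, Fbxo40 and Nedd4 lost their calls. That dispersion contains the differences under test, so the lost calls do not show equal levels. The summed level of the 10 genes, 1759 CPM, was 1518 CPM over Known, NIC and NNC models and 1680 CPM over all reads of the table, and ran from 1711 to 1808 CPM without replicate 1 or replicate 2. Genes with a different complete share numbered 40, and 70 with NIC and NNC counted as complete; genes with a different leading share numbered 18, and 4 over annotated chains only. Leaving out annotated chains contained in longer ones, an alternative chosen after seeing the data, gave 31 and lowered the mean complete share of Fbxo40 to 58.7%. In Fbxo40 that setting no longer counts the chain of the last intron alone, with 39 reads in replicate 1 and 49 in replicate 2. It also leaves out the annotated chain that lacks only intron 1, with 2 reads in each library. Whether these reads are parts of the longer transcript was not tested. The share of 3′ ends at the most used end, pooled over the unannotated models of all members, was 88.9% in all windows. It was 92.35% without replicate 1 and 86.54% without replicate 2. No paired analysis was possible because there is 1 group.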
